A study of Mus musculus with 10 samples.

Results

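Translation initiation and elongation factor genes were followed in the tibialis anterior, a fast muscle of the lower leg, of mice bearing Lewis Lung Carcinoma (LLC) tumors and of tumor-free Control mice. LLC cells come from a mouse lung carcinoma, and mice with LLC tumors lose muscle and fat, a condition called cachexia. The genes were all protein-coding genes with a mouse symbol beginning with Eif followed by 1 to 6, or with Eef followed by 1 or 2, except Eif4ebp1, Eif4ebp2 and Eif2s3y. This gave 64 genes of the 39179 Ensembl gene identifiers listed for each library, and 61 of the 64 were among the 12690 genes abundant enough to be tested. The 64 genes were divided by role into 42 initiation factors, 6 elongation factors, 4 kinases that phosphorylate eIF2, the 2 eIF5A genes and 10 other genes (methyltransferases and kinases of the elongation factors, binding proteins and factors of other steps). The rule used names only and no measured value.

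There were 4 Control and 6 LLC libraries, each of total RNA from 1 mouse. LLC mice had received LLC cells under the skin of both flanks, and Control mice had received phosphate-buffered saline in both flanks. The sample labels describe C57BL/6J mice of 10 weeks of age and a tumor development of 23 days, against 0 days in Control. The design text and the study's methods describe male C57BL/10 mice, 8 weeks of age at injection, examined 22 days later, so strain, age and time were not settled. No engineered allele is named for either group, and the LLC libraries came from animals that had survived to the end of the tumor period. Small RNA libraries of the same muscles were not analysed here.

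Protein synthesis starts when eIF2 brings the initiator tRNA to the small ribosomal subunit, which eIF3, eIF1 and eIF1A hold ready to scan. The eIF4F complex, made of the cap-binding protein eIF4E, the scaffold eIF4G and the helicase eIF4A, recruits the mRNA, and eIF5 and eIF5B complete the joining of the subunits. eIF2B recharges eIF2 with GTP, and the eIF2 kinases stop that recharging under stress, which lowers initiation as a whole. In elongation, eEF1A delivers each aminoacyl-tRNA, the eEF1B subunits recharge eEF1A, and eEF2 moves the ribosome along. Skeletal muscle is known for replacing the widely used eEF1A1 by its paralog eEF1A2 after birth.

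Levels are given as CPM, the usual depth-normalised read count, with each library total corrected for composition by a TMM scaling factor. Library totals ranged from 16693209 to 21303084 counts. The 64 genes took 0.725% to 0.755% of all counts in Control and 0.808% to 1.41% in LLC. LLC 1 (1.41%) and LLC 5 (1.09%) stood apart from the other LLC libraries, none of which was over 0.926%. These same libraries had the lowest shares of mitochondrially encoded counts, 22.0% in LLC 1 and 22.9% in LLC 5, against 25.8% to 27.9% in the other LLC libraries and 28.45% to 30.7% in Control. LLC 1 held the highest LLC value for 39 of the 61 tested genes and LLC 5 for 14 of them. Results are therefore given with and without LLC 1, and with LLC 1 and LLC 5 both left out. These libraries were picked partly by the levels of these same genes. The p-values without them therefore describe sensitivity only and are not separate support.

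Markers of the labelled tissue were abundant in every library. The summed level of 6 myofibre markers was 101530 to 108230 CPM in Control and 64849 to 114580 CPM in LLC, lowest in LLC 1, and 0 of the 6 passed the threshold used below in edgeR's test. Markers of some other cells did move with the groups. The sum of 5 neutrophil markers was 1.01 to 1.98 CPM in Control and 31.2 to 67.0 CPM in LLC, highest in LLC 5, and 5 of 5 passed in the higher direction. The sum of 6 fibroblast markers was 288 to 370 CPM in Control and 52.4 to 94.4 CPM in LLC, and 6 of 6 passed in the lower direction. In the erythroid list 3 of 4 passed as higher, in the satellite cell list 2 of 3 as lower, and 1 of 5 endothelial markers as lower and 1 of the 4 tested macrophage markers as lower. No marker was at 0 in all libraries of either group. Because these are whole-muscle libraries, fewer cells of a type and less RNA per cell cannot be told apart, and the part of these markers in the results on translation factors was not tested.

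Most of the translation factor genes had a higher fitted level in LLC, by small amounts that seldom passed a test. The log2 fold change was above 0 for 50 of the 61 genes, against 50.3% of all tested genes. Its median was 0.22 over the 61 genes and 0.00 over all tested genes. The threshold was an adjusted p (Benjamini-Hochberg) of 0.05 or less with at least a 1.5-fold change in the quasi-likelihood test of edgeR. In this test 0 of the 61 genes passed it, and 5.63% of all tested genes did. At an unadjusted p of 0.05 or less there were 22 genes, where the background was 27.4%. Of these, 19 were higher in LLC (background 12.7%) and 3 were lower (background 14.6%). DESeq2 placed 1 of the 61 genes past the threshold, Eif3j1, with a background of 8.29%. The differences were thus spread over many genes of the set and were mostly under 1.5-fold.

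With the fold minimum dropped, 2 of the 61 genes had an adjusted p of 0.05 or less in edgeR's test (background 6.99%). They were Eif4e2, which rose, and Eif2ak3, which fell. DESeq2 gave 5 genes (background 11.9%), adding Eif3j1, Eif4e and Eef2. Both edgeR calls were lost when any 1 of the 4 Control libraries, LLC 5 or LLC 6 was left out. Eif4e2 was also lost without LLC 2 or LLC 4, and Eif2ak3 without LLC 2 or LLC 3. They were the same 2 genes when mitochondrially encoded genes were left out before scaling or with RLE scaling. Neither was called with upper-quartile scaling (adjusted p 0.0694 for Eif4e2 and 0.0522 for Eif2ak3), with no filter on low counts (0.0879 and 0.0716) or with at least 10 counts required in every library (0.0517 and 0.0506). The count went up to 9 genes without LLC 1 (background 14.2%) and to 12 genes without LLC 1 and LLC 5 (background 16.1%). Leaving out these libraries raised the number of calls among all tested genes as well.

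Separation of the groups was also counted. In 14 of the 61 genes all 6 LLC libraries lay above all 4 Control libraries (background 6.4%), and in 2 genes, Eif4e and Eif2ak3, all 6 lay below (background 9.57%). The 14 were Eif1, Eif1ax, Eif5 and Eif5b of the scanning and joining factors, the eIF2 subunit genes Eif2s2 and Eif2s3x, the eIF3 subunit genes Eif3b and Eif3j1, the eIF4 genes Eif4a2, Eif4e2, Eif4g2 and Eif4g3, and the elongation factor genes Eef1d and Eef2. Leaving out LLC 4, the LLC library with the lowest median of the initiation factors, raised this count to 23, where the background rose to 9.77%. Without LLC 1 it was 14 (background 7.84%). With fewer libraries in a group, separation is easier for any gene. The count was 11 with upper-quartile scaling or with at least 10 counts required in every library. It was 13 with no filter on low counts and 15 with RLE scaling. The backgrounds of these settings were not counted.

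**Figure D1:**
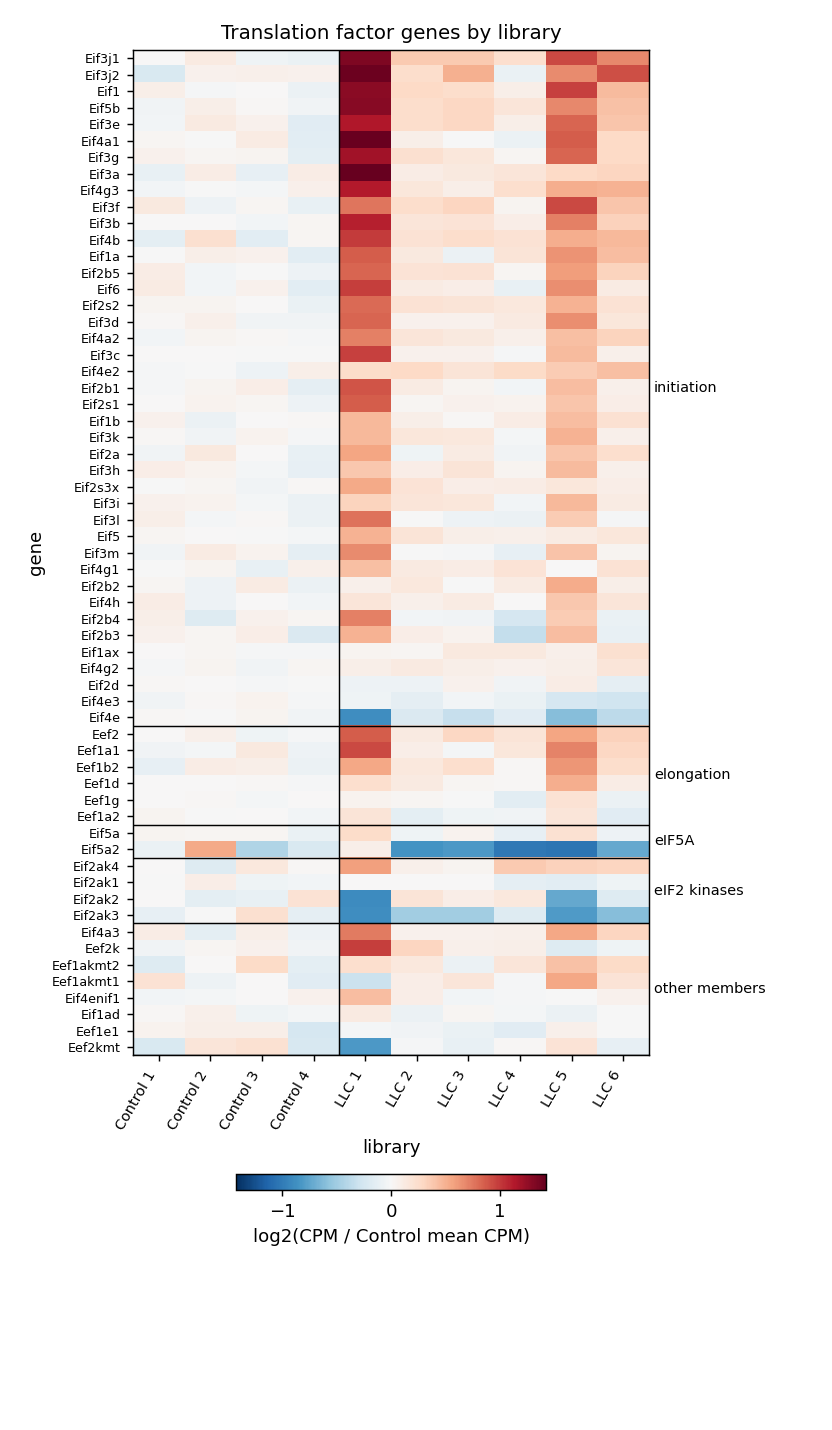
Level of each of the 61 tested genes (rows, grouped by role) in each of the 10 libraries (columns), as the log2 of CPM over the mean CPM of the 4 Control libraries. Red marks a level above the Control mean and blue a level below it. LLC 1 and LLC 5 are the reddest columns among the initiation factors, and Eif4e and Eif2ak3 are blue in all 6 LLC libraries.

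The fitted directions were not alike across the classes. Of the 41 tested initiation factors 38 had a positive log2 fold change, with a median of 0.29. Of the 6 elongation factors 5 were positive, with a median of 0.25. Of the 4 eIF2 kinases 1 was positive, with a median of -0.11. Without LLC 1 the medians were 0.19, 0.23 and -0.06 in the same order. Without LLC 1 and LLC 5 they were 0.11, 0.10 and 0.01. The medians of initiation and elongation factors thus stayed positive at a smaller size, and that of the kinases did not stay negative. Under limma voom with sample quality weights they were 0.13, 0.13 and -0.0075. No class was tested as a whole.

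Per library, the median initiation factor stood at -0.05 to 0.03 over the Control mean on the log2 scale in Control. It was 0.77 in LLC 1, 0.13 in LLC 2, 0.11 in LLC 3, 0.05 in LLC 4, 0.45 in LLC 5 and 0.20 in LLC 6. All 6 LLC medians were above all 4 Control medians, with LLC 4 the nearest. The median elongation factor was 0.40 in LLC 1, 0.11 in LLC 2, 0.01 in LLC 3, 0.02 in LLC 4, 0.54 in LLC 5 and 0.18 in LLC 6. It exceeded the initiation median in LLC 5 and in no other LLC library. The median kinase was -0.44 in both LLC 1 and LLC 5, -0.12 in LLC 6, and between 0.01 and 0.03 in LLC 2, LLC 3 and LLC 4, and it lay below the initiation median in all 6.

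**Figure D2:**
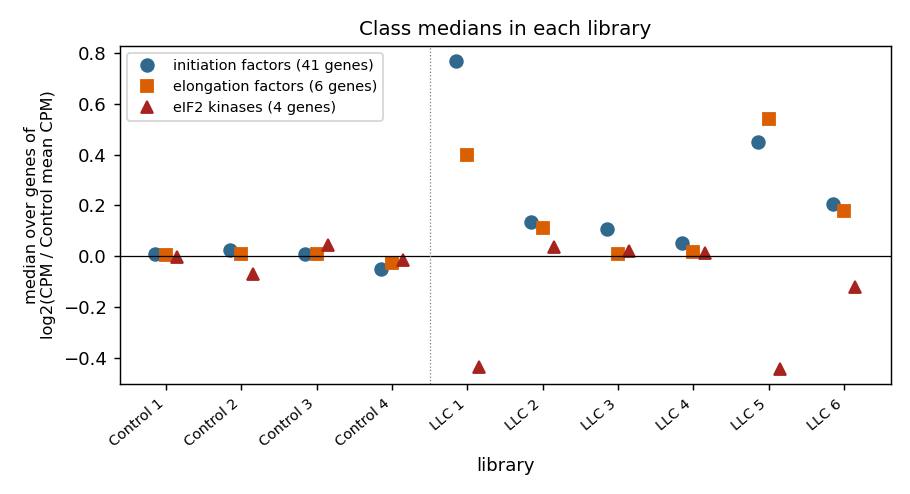
Median over the genes of a class of the log2 ratio of CPM to the Control mean, for each of the 10 libraries. Circles are the 41 initiation factors, squares the 6 elongation factors and triangles the 4 eIF2 kinases. The initiation and elongation medians are highest in LLC 1 and LLC 5, where the kinase median is lowest.

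Per length, the 2 kinds of factor were about equally abundant in Control despite their different numbers of genes. On the RPKM scale (CPM divided by the GENCODE exon length in kilobases), the 6 elongation factors summed to 1029 to 1066 in Control and the 41 initiation factors to 995 to 1040. In LLC the initiation sum was 1072 to 1804, above Control in all 6 libraries. The elongation sum was 1044 to 1442, above all Control libraries in 5 of 6. The 4 kinases summed to 11.7 to 12.5 RPKM in Control and 10.6 to 11.9 in LLC, with overlap.

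The cap-binding genes had fitted differences of opposite sign. Eif4e2 encodes 4EHP, a relative of eIF4E that binds the cap without binding eIF4G and is known as a repressor of chosen mRNAs. Eif4e2 (chromosome 1, 87213914 to 87240488, plus strand, build GRCm38) was at 45.5, 45.9, 44.0 and 48.9 CPM in Control 1 to 4. In LLC the lowest, median and highest Eif4e2 values were 52.4, 55.8 and 61.8 CPM. All LLC libraries lay above all Control libraries, and LLC 1, at 55.0 CPM, was the second lowest of its group. The log2 fold change was 0.30 ± 0.078 (SE), at an edgeR adjusted p of 0.0420. Without LLC 1 it was 0.32 with an adjusted p of 0.0133, and without LLC 1 and LLC 5 it was 0.29 with an adjusted p of 0.0105.

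Eif4e (chromosome 3, 138526179 to 138559696, plus strand) encodes the cap-binding protein of eIF4F itself. It was at 92.5, 90.9, 93.7 and 88.1 CPM in Control. The lowest, median and highest LLC values of Eif4e were 49.6, 71.5 and 81.6 CPM, the lowest in LLC 1 and the next, 59.9 CPM, in LLC 5. No LLC library reached the Control range. For Eif4e the log2 fold change was -0.41 ± 0.13 (SE), at an edgeR adjusted p of 0.0828. Without LLC 1 the value was -0.32 with an adjusted p of 0.0269, and DESeq2 gave an adjusted p of 0.0445. An annotated microRNA gene, Mir1956, lies in its exons on the same strand. The other cap-binding gene, Eif4e3, had a log2 fold change of -0.14 (adjusted p 0.259), with 5 of 6 LLC libraries below all Control libraries.

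Promoter sequence was read for the cap-binding genes and for Eef2 and Eif3f, to show known motifs at genes described here. Windows from 250 bases before to 50 bases after each RefSeq start (build GRCm38.p6) were given for 49 of the 64 genes. These windows were searched on both strands for the ETS motif CCGGAAG, the E-box CACGTG, the cyclic AMP response element TGACGTCA and the ATF4-C/EBP motif TGATGNAA, none of which contains another. The ETS motif was in 16 of the 49 promoters (32.7%) and in 20.1% of the promoters of tested genes and 9.93% of all promoters. The E-box was in 12 of 49 (24.5%), against 11.9% and 8.09%. The cyclic AMP element was in 1 of 49, that of Eef2 (2.04%, against 3.63% and 2.03%), and the ATF4-C/EBP motif was in 2, those of Eef2k and Eif2s3x (4.08%, against 2.70% and 4.51%). Neither Eif3j1 nor Eif2ak3 had any of the 4 in the windows read. A match is a description of the letters and not of a bound site. Both Eif4e E-boxes lie before the RefSeq start of their window, at positions -228 and -64, and are called upstream and downstream by their order. That start lies inside the GENCODE bounds given above for Eif4e, which begin at 138526179. In the 30-base windows printed here, all from the plus strand and with the motif in capitals, the Eif4e2 ETS motif lies at chr1:87213905-87213934, the Eif4e E-boxes at chr3:138527028-138527057 and chr3:138527192-138527221, the Eef2 E-box and cyclic AMP element at chr10:81176576-81176605 and chr10:81176622-81176651, and the Eif3f E-box at chr7:108934335-108934364.
Eif4e2 ETS motif: tcgccagccaaCCGGAAGtagccgggccct
Eif4e upstream E-box: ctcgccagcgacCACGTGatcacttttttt
Eif4e downstream E-box: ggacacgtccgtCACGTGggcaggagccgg
Eef2 E-box: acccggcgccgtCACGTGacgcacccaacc
Eef2 cyclic AMP element: aggccgggcgtTGACGTCAgcggtctcttc
Eif3f E-box: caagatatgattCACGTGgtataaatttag

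The E-box was thus found both in a gene with a negative log2 fold change (Eif4e) and in genes with positive log2 fold changes (Eef2 and Eif3f). Eif3a, Eif4a1 and Eif4g1 also held it.

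Over all 10 tested eIF4 genes, those of the cap-binding proteins included, 8 had a positive log2 fold change, and the median was 0.24, or 0.20 without LLC 1. Eif4b, a cofactor of the helicase, was at 169, 216, 167 and 189 CPM in Control and had a lowest, median and highest LLC value of 213, 237 and 369 CPM. The highest Control and lowest LLC values of Eif4b crossed. Its log2 fold change was 0.47 ± 0.16 (SE), at an edgeR adjusted p of 0.101 and of 0.0421 without LLC 1. Eif4g1, the main scaffold gene, was at 543 to 611 CPM in Control and 585 to 782 CPM in LLC, with 5 of 6 LLC libraries above all Control libraries and a log2 fold change of 0.18 (adjusted p 0.242). Its paralog Eif4g3 had a log2 fold change of 0.48 (adjusted p 0.125), which was 0.32 with an adjusted p of 0.0470 without LLC 1.

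The helicase paralogs Eif4a1 and Eif4a2 were both present, Eif4a2 at 52.1 and Eif4a1 at 15.4 RPKM in Control. Eif4a2 was at 271, 286, 280 and 274 CPM in Control and at 293, 330 and 457 CPM (lowest, median, highest) in LLC, without overlap. On the log2 scale its fold change was 0.33 ± 0.13 (SE), at an edgeR adjusted p of 0.129. Exons of Eif4a2 hold small nucleolar RNA genes, and Rfc4 lies on the opposite strand. Eif4a1 was at 60.1 to 72.4 CPM in Control and 62.9 to 178 CPM in LLC, with only LLC 1, LLC 5 and LLC 6 above Control. For this gene the log2 fold change of 0.53 (adjusted p 0.223) dropped to 0.07 without LLC 1 and LLC 5.

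eIF3 is the largest initiation complex. The log2 fold change was positive for all 14 eIF3 genes, from 0.19 for Eif3m to 0.71 for Eif3j1, with a median of 0.42. No eIF3 gene had an adjusted p of 0.05 or less in edgeR's test, 6 of 14 had an unadjusted p of 0.05 or less (background 27.4%), and DESeq2 called 1 (background 11.9%). The median was 0.23 without LLC 1, when 14 of 14 were still positive, and 0.14 without LLC 1 and LLC 5, when 12 of 14 were. In LLC 1 and in LLC 5 all 14 lay above the highest Control value, and in LLC 4 this was true of 4.

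Eif3j1 (chromosome 2, 122028546 to 122056598, plus strand) encodes a loosely bound subunit that sits near the mRNA channel of the small subunit. It was at 85.1, 92.9, 81.5 and 79.5 CPM in Control, and its lowest, median and highest LLC values were 100.0, 123 and 213 CPM. The groups did not overlap, with LLC 1 highest and LLC 4 lowest. For Eif3j1 the log2 fold change was 0.71 ± 0.20 (SE), at an edgeR adjusted p of 0.0543, just over 0.05. DESeq2 gave an adjusted p of 0.0118. Without LLC 1 the fold change was 0.55 with an adjusted p of 0.0179. Eif3j1 overlaps Spg11 on the opposite strand and Gm47314 on its own. Eif3j2, a near copy on chromosome 18, was at a mean of 3.56 CPM in Control (SD 0.324, n = 4) and of 5.72 CPM in LLC (SD 2.13, n = 6), and its log2 fold change of 0.68 (adjusted p 0.115) is uncertain because reads may have been split between the copies.

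Among the other eIF3 genes, Eif3f was at 99.7, 86.4, 92.3 and 84.4 CPM in Control. Its lowest, median and highest LLC values were 93.0, 115 and 174 CPM, the highest in LLC 5, and 5 of 6 LLC libraries lay above all Control libraries. For Eif3f the log2 fold change was 0.48 ± 0.17 (SE), at an edgeR adjusted p of 0.0977. Eif3f is known in muscle as a partner of the ubiquitin ligase atrogin-1 (Fbxo32). Eif3a, the core scaffold subunit, was at 114 to 133 CPM in Control and 133 to 153 CPM in the LLC libraries other than LLC 1, which stood at 332 CPM. Between the groups its log2 fold change of 0.49 (adjusted p 0.216) was 0.21 without LLC 1 (adjusted p 0.0901).

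Factors of scanning and subunit joining included Eif1, which guards the choice of the start codon. Eif1 was at 443, 412, 420 and 395 CPM in Control, and its lowest, median and highest LLC values were 444, 539 and 1014 CPM. LLC 4 lay just above Control 1, while LLC 1 and LLC 5 (821 CPM) lay far above all others. For Eif1 the log2 fold change was 0.62 ± 0.22 (SE), the third highest of the 61 genes, at an edgeR adjusted p of 0.108. It was 0.27 with an adjusted p of 0.0290 without LLC 1 and LLC 5. Against its paralog Eif1b, Eif1 had a log2 ratio of counts of 4.50 in Control (SD 0.067, n = 4) and of 4.84 in LLC (SD 0.29, n = 6), a difference of 0.33 (exact permutation test, two-sided, p = 0.0381, adjusted over 5 paralog ratios 0.0635).

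Eif5b, the GTPase that joins the large subunit, was at 109, 120, 114 and 109 CPM in Control and at 128, 145 and 277 CPM (lowest, median, highest) in LLC. The groups did not overlap. Its log2 fold change was 0.58 ± 0.20 (SE), at an edgeR adjusted p of 0.103, of 0.0238 without LLC 1 and of 0.00926 without LLC 1 and LLC 5, where the change was 0.28. Eif5, which triggers GTP hydrolysis on eIF2, was at 191 to 197 CPM in Control and 205 to 273 CPM in LLC, also without overlap, with a log2 fold change of 0.19 (adjusted p 0.209). Eif6, which keeps the large subunit apart until it is needed, had a log2 fold change of 0.37 (adjusted p 0.245) and of 0.05 without LLC 1 and LLC 5. Over the 9 genes of this group 8 were positive and the median was 0.23.

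**Figure D3:**
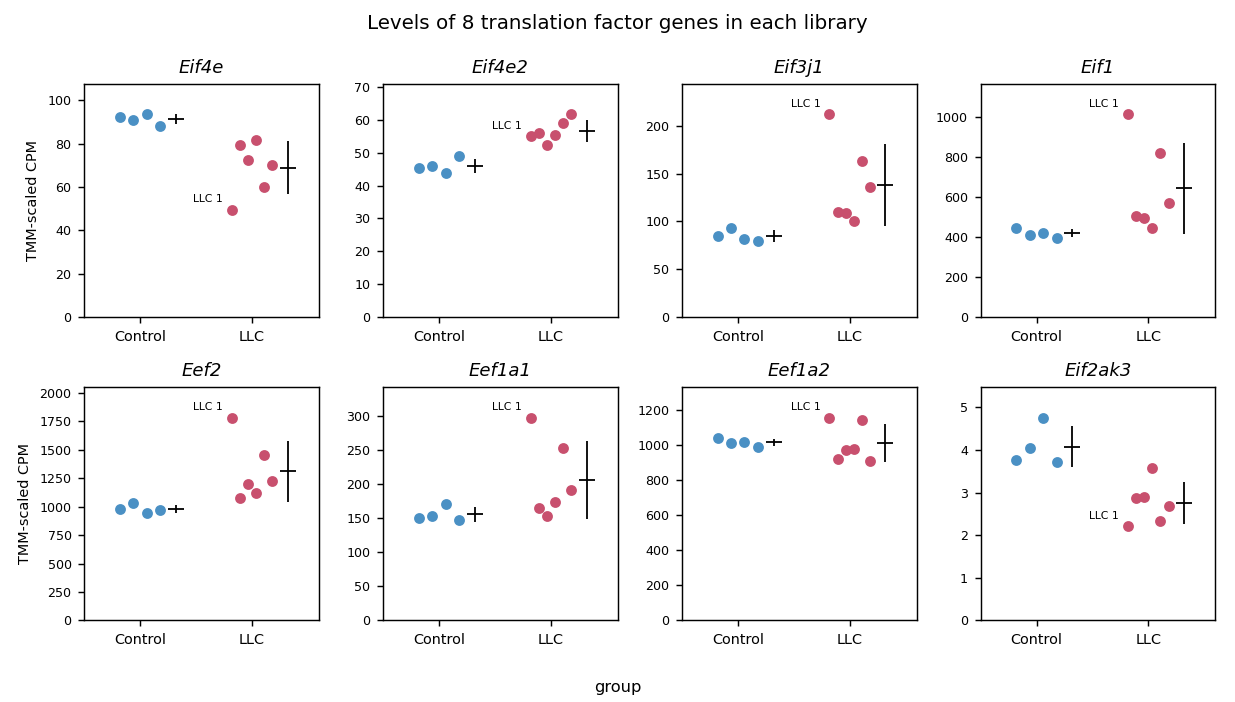
TMM-scaled CPM of 8 translation factor genes in each Control (blue) and LLC (red) library, with the mean and SD of each group beside the points. LLC 1 is labelled. The groups do not overlap for Eif4e, Eif4e2, Eif3j1, Eif1, Eef2 and Eif2ak3, and they overlap for Eef1a1 and Eef1a2.

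With no library left out, the eIF2 and eIF2B subunit genes all had positive log2 fold changes. None had an adjusted p of 0.05 or less in edgeR's test or in DESeq2. In each complex 1 gene had an unadjusted p of 0.05 or less in edgeR's test. Eif2s1 encodes the alpha subunit, which the kinases phosphorylate. It was at 32.3, 33.4, 32.8 and 30.6 CPM in Control and 33.0, 34.0 and 58.7 CPM (lowest, median, highest) in LLC, and only LLC 1 and LLC 5 (42.5 CPM) stood clearly above Control. On the log2 scale its fold change was 0.28 (adjusted p 0.264), or 0.06 without LLC 1 and LLC 5. Eif2b5, the catalytic subunit of eIF2B, was at 56.0 to 63.2 CPM in Control and 59.96 to 104 CPM in LLC, with 5 of 6 LLC libraries above Control and a log2 fold change of 0.39 (adjusted p 0.121). Medians were 0.28 over the 3 eIF2 genes and 0.17 over the 5 eIF2B genes. Without LLC 1 and LLC 5 the medians were 0.12 and 0.04. In that setting 3 of 3 eIF2 genes but only 3 of 5 eIF2B genes were positive.

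Of the eIF2 kinases, Eif2ak3 fell. Eif2ak3 (chromosome 6, 70844515 to 70905245, plus strand) encodes PERK, the kinase that senses unfolded proteins in the endoplasmic reticulum. It was at 3.76, 4.05, 4.76 and 3.73 CPM in Control (68 to 88 counts), and its lowest, median and highest LLC values were 2.21, 2.78 and 3.58 CPM (43 to 71 counts). All LLC libraries lay below all Control libraries, with LLC 4 the closest and LLC 1 the lowest. The log2 fold change was -0.56 ± 0.15 (SE), at an edgeR adjusted p of 0.0472 and of 0.0248 in DESeq2. Without LLC 1 it was -0.49 with an adjusted p of 0.0379, and without LLC 1 and LLC 5 it was -0.44 with an adjusted p of 0.0516. An antisense gene, Gm43292, overlaps its exons, so its count depends on the strand setting.

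None of the other kinases had an adjusted p of 0.05 or less in edgeR's test or in DESeq2, and 1 of them, Eif2ak4, had an unadjusted p of 0.05 or less. Eif2ak1 (HRI, the heme-regulated kinase) was the most abundant, at 9.69 RPKM in Control against 0.676 to 0.806 RPKM for the others. It differed by -0.05 ± 0.076 (SE) on the log2 scale (adjusted p 0.656). Eif2ak2 (PKR, which binds double-stranded RNA) was at 3.75 to 4.77 CPM in Control. It was at 2.21 CPM in LLC 1 and 2.48 CPM in LLC 5, and at 3.63 to 4.69 CPM in the other LLC libraries. For this gene the log2 fold change of -0.17 (adjusted p 0.623) became 0.07 without LLC 1 and LLC 5. Eif2ak4 (GCN2, which senses uncharged tRNA) was at 5.77, 5.09, 6.38 and 5.81 CPM in Control and 5.91, 7.17 and 8.64 CPM (lowest, median, highest) in LLC. Between the groups its log2 fold change was 0.30 ± 0.13 (SE), with an adjusted p of 0.165.

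Among the 6 elongation factors, Eef2, the translocase, had the largest log2 fold change, and its groups did not overlap. It was at 983, 1028, 942 and 971 CPM in Control, and its lowest, median and highest LLC values were 1073, 1215 and 1782 CPM, with LLC 1 highest. For Eef2 the log2 fold change was 0.42 ± 0.14 (SE), at an edgeR adjusted p of 0.101. DESeq2 gave 0.0447. Without LLC 1 the fold change was 0.32 with an adjusted p of 0.0390, and without LLC 1 and LLC 5 it was 0.23 with an adjusted p of 0.0299. Eef2k, the kinase that inactivates eEF2, was at 70.2 to 76.1 CPM in Control and 64.3 to 90.2 CPM in the LLC libraries other than LLC 1, which reached 144 CPM. Its log2 fold change was 0.26 (adjusted p 0.402), or 0.06 without LLC 1.

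The eEF1A paralogs differed in level. Eef1a2, the muscle form, was the most abundant of all 64 genes per length, at 488 ± 9.93 RPKM in Control (SD, n = 4), followed by Eef2 at 295 RPKM, Eif1 at 199, Eef1g at 153 and Eif5a at 102, while Eef1a1 was at 62.4 RPKM. Eef1a2 was at 1042, 1015, 1021 and 992 CPM in Control and 909, 976 and 1159 CPM (lowest, median, highest) in LLC. The LLC values lay on both sides of Control, with 2 above and 4 below it. On the log2 scale its fold change was -0.0042 ± 0.10 (SE), with an adjusted p of 0.983, and its sign changed with the scaling. Eef1a1 was at 150, 153, 171 and 148 CPM in Control and 153, 182 and 297 CPM in LLC, with 4 of 6 LLC libraries above Control. For this gene the log2 fold change was 0.40 ± 0.18 (SE), at an edgeR adjusted p of 0.176, and 0.13 without LLC 1 and LLC 5. Exons of Eef1a1 hold a small RNA gene, Gm26377.

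The ratio of the paralogs within a library does not depend on scaling. The log2 ratio of Eef1a1 to Eef1a2 counts was -2.80, -2.73, -2.58 and -2.75 in Control. In LLC it ran from -2.67 in LLC 3 to -1.96 in LLC 1, and 5 of 6 LLC libraries lay above all Control libraries. LLC exceeded Control by 0.37 (exact permutation test, two-sided, p = 0.0190, adjusted over 5 paralog ratios 0.0476), where the smallest p the design allows is 0.00952. Without LLC 1 and LLC 5 the difference was 0.24 (exact permutation test, adjusted p 0.143). Leaving out any 1 library gave an adjusted p of 0.0529 to 0.119 in this test. Fewer libraries allow fewer splits, so the smallest p the test could give was larger in these settings. For Eif4a1 over Eif4a2 the difference was 0.12 (exact permutation test, adjusted p 0.629), and for Eif4g1 over Eif4g3 it was -0.26 (exact permutation test, adjusted p 0.131).

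The eEF1B subunits that recharge eEF1A had smaller differences. Eef1b2 was at 90.2, 105, 104 and 91.9 CPM in Control and 99.2, 116 and 151 CPM (lowest, median, highest) in LLC, with 5 of 6 LLC libraries above Control and LLC 4 within it. Between the groups its log2 fold change was 0.32 ± 0.13 (SE), with an adjusted p of 0.132. Ndufs1 overlaps it on the opposite strand. Eef1d was at 81.7 to 83.4 CPM in Control and 83.4 to 118 CPM in LLC, with all LLC values above Control, LLC 4 barely so, and a log2 fold change of 0.18 (adjusted p 0.270). Eef1g was at 391 to 401 CPM in Control and 359 to 457 CPM in LLC, on both sides of Control, with a log2 fold change of 0.01 (adjusted p 0.950).

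eIF5A, named as an initiation factor, acts in elongation through difficult peptide bonds. Eif5a was at 249, 247, 247 and 228 CPM in Control and 223, 242 and 292 CPM (lowest, median, highest) in LLC, with overlap and a log2 fold change of 0.05 (adjusted p 0.741). Its paralog Eif5a2 was rare, at 0.757 to 1.48 CPM in Control (14 to 30 counts) and 0.496 to 1.08 CPM in LLC (10 to 21 counts). Its log2 fold change was -0.67 ± 0.28 (SE), at an edgeR adjusted p of 0.152. Without LLC 1, the one LLC library within the Control range, it was -0.88 with an adjusted p of 0.0342. The log2 ratio of Eif5a to Eif5a2 counts was higher in LLC by 0.70. The exact permutation test, two-sided, gave p = 0.0190, adjusted over 5 paralog ratios 0.0476. Leaving out any 1 library moved the adjusted p of this test to between 0.0529 and 0.119, where fewer splits were possible.

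Of the 10 other genes, 8 were tested and none had an unadjusted p of 0.05 or less in edgeR's test or an adjusted p of 0.05 or less in DESeq2. Their log2 fold changes ran from -0.11 for Eef2kmt to 0.32 for Eif4a3, a helicase of the exon junction complex. The 3 genes not tested were too rare. Eif4e1b, an oocyte relative of eIF4E, had 0 counts in all 10 libraries. There 3 counts correspond to 0.141 to 0.180 CPM of the library totals, before TMM scaling. Eef1akmt3 was at most at 0.162 CPM and Eif4ebp3 at most at 0.346 CPM.

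The wider list of other translation genes held 34 genes, of which 32 were tested. Gspt2 was too rare, and Gcn1 was not matched to a symbol, so its level was not read. None of the 32 passed the threshold in edgeR's test (background 5.63%), while 13 reached an unadjusted p of at most 0.05 (background 27.4%). Of these 13, 10 were higher (background 12.7%) and 3 lower (background 14.6%). DESeq2 placed 1 of the 32 past the threshold (background 8.29%). With the fold minimum dropped, DESeq2 called 4 of the 32, all higher (background 11.9% in either direction). The edgeR test then called 0 (background 6.99%). The median log2 fold change was 0.19, with 23 of 32 positive. In 8 of the 32 all 6 LLC libraries lay above all 4 Control libraries (background 6.4%). In 3 of the 32 all 6 lay below (background 9.57%). Eif4ebp1 encodes 4E-BP1, the repressor that competes with eIF4G for eIF4E. It was at 29.02, 30.3, 30.1 and 28.2 CPM in Control. In LLC it was at 270 CPM in LLC 1, 131 CPM in LLC 5, 33.4 to 50.2 CPM in LLC 2, LLC 3 and LLC 6, and 28.7 CPM, within the Control range, in LLC 4. On the log2 scale its fold change was 1.67 ± 0.60 (SE), at an edgeR adjusted p of 0.111, and 0.42 with an adjusted p of 0.0571 without LLC 1 and LLC 5.

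Impact, an inhibitor of GCN2 activation chosen here after its values were seen, was at 14.1, 14.7, 14.98 and 13.5 CPM in Control and 19.1, 23.8 and 66.0 CPM (lowest, median, highest) in LLC, without overlap. For this gene the log2 fold change was 1.10 ± 0.34 (SE), at an edgeR adjusted p of 0.0732 and of 0.0126 in DESeq2, and 0.74 at an edgeR adjusted p of 0.0122 without LLC 1.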

How the data were processed

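RNA of the tibialis anterior of 4 Control and 6 LLC mice was sequenced by the authors as strand-specific total RNA libraries, all in 1 lane. Per the study's methods, reads were mapped to mm10 with TopHat and counted per RefSeq gene by HTSeq with default options. Groups were compared with DESeq2. The sample records also name FastQC. The authors deposited raw read counts per gene, as whole numbers, for each library on its own. They are listed by Ensembl identifier, so that the annotation release is not given in the sources used here. No strand setting is named there beyond the default options of HTSeq. Either can change the count of a gene that overlaps another. Symbols, gene types, coordinates and exon lengths came from GENCODE M21 (GRCm38), which held 37693 of the 39179 identifiers. Of 65 genes of the rule in that release 64 were listed. Another 6 matching symbols belonged to other gene types and were left out. No row named anything other than a gene.

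Genes were kept by edgeR's filterByExpr (minimum count 10), scaled by TMM and fitted on the whole table, with group and no other term, by the quasi-likelihood test of edgeR 4.0.16 in R 4.3.3. P-values were adjusted by Benjamini-Hochberg over all 12690 tested genes. The threshold was an adjusted p of 0.05 or less with a change of at least 1.5-fold. The study's figure legends give a fold change over 1.5 and a false discovery rate under 0.05, from a Wald test. Its methods give at least 1.5-fold and a p-value of 0.05 or less, with no adjustment named. Fold changes are on the log2 scale of the fitted model, and standard errors were derived from the test statistic. Paralog ratios were taken per library as the log2 ratio of counts with 0.5 added and the groups were compared by a two-sided exact permutation test of these ratios. Group and replicate came from the labels. Replicates are separate mice, and every pair of libraries differed by more than sampling noise (chi-square per degree of freedom 3.71 or more). Library totals of 16693209 to 21303084 counts set the counting error, and floors cover counting error only.

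The genes, class lists, other translation genes, markers and tests were chosen with earlier results of these data known. Genes named with full values were those with an adjusted p of 0.05 or less, the elongation factors and eIF2 kinases, 16 genes listed by role, the 3 highest and 3 lowest fold changes with an average log2 CPM of 1 or more, and Eif4ebp1. Others were named after their values were seen. Alternatives covered scaling, filter, test (DESeq2 1.42.0, limma 3.58.1 voom), the replicate number, class membership and each library left out. Leaving out LLC 1 and LLC 5 together and the counts of genes without overlap under each setting were added after the data were seen. The scripts were tested on simulated data. Promoter windows came from RefSeq (GRCm38.p6).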

Additional observations from a re-analysis of the deposited data

Results flagged for a closer look

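Levels were examined for single libraries far from the rest of their group, in 74 groups of 4 or 6 libraries (37 measures). A group was picked out when the gap between its highest or lowest library and the next one was over the 95% limit of Dixon's test, which chance reaches in about 1 of 20 groups, or 3.7 of 74. This held for 9 groups.

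LLC 1 was the library in 6 of the 9, each time as the highest of the LLC libraries. These were Eif3a at 332 CPM, Eif5 at 273 CPM, Eif4b at 369 CPM, Eif5b at 277 CPM, Eif2s1 at 58.7 CPM and the eEF2 kinase gene Eef2k at 144 CPM. With LLC 1 left out, the log2 fold change of Eif3a was 0.21 and that of Eef2k 0.06.

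In Control, Control 1 was the lowest for Eif3j2, at 3.07 CPM, and Control 4 was the lowest for Eif5a, at 228 CPM. Control 4 was also the lowest in the median elongation factor, at -0.028 on the log2 scale over the Control mean, a small distance among Control libraries that lay close together.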

How the results depend on the processing

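The number of genes past the threshold was 0, and it was 1 with upper-quartile scaling, no filter on low counts, DESeq2, voom, or LLC 1 and LLC 5 left out, and 0 to 3 with 1 library left out. The number with an adjusted p of 0.05 or less was 2. It was 1 with upper-quartile scaling or no filter (Eif3j1 in both, with neither Eif4e2 nor Eif2ak3), 0 with at least 10 counts in every library, 5 with DESeq2, 12 with voom (background 18%) or without LLC 1 and LLC 5 (background 16.1%), and 0 to 9 with 1 library left out (9 without LLC 1, 4 without LLC 4). In the other translation genes 1 passed with DESeq2 or voom, and 0 to 1 with 1 library left out. Genes with all LLC above all Control libraries numbered 14 to 23 with 1 library left out, with backgrounds of 7.84% without LLC 1 and 9.77% without LLC 4. They numbered 11 with upper-quartile scaling or at least 10 counts in every library, 13 with no filter and 15 with RLE scaling. The kinase median was 0.0088 without LLC 1 and LLC 5, and the Eif4a1 to Eif4a2 ratio difference was then -0.11. The Eef1a1 to Eef1a2 difference was 0.298 to 0.440 with 1 library left out and 0.239 without LLC 1 and LLC 5. That of Eif5a to Eif5a2 was 0.518 to 0.832 and 0.724, and in all these settings neither kept an adjusted p of 0.05 or less, fewer libraries allowing fewer splits.

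Near zero, signs changed. Eef1a2 was 0.0069 with RLE scaling, 0.0075 with no filter, 0.0070 with DESeq2 and -0.041 to 0.035 with 1 library left out. Eef1g was -0.026 with upper-quartile scaling, -0.0010 with the stricter filter, -0.030 with voom, -0.020 with the replicate block, -0.032 to 0.039 with 1 library left out and -0.058 without LLC 1 and LLC 5. Eif2ak2 was 0.025 with voom and 0.068 without LLC 1 and LLC 5, and Eif5a was -0.026 and -0.053. The causes were not tested. RLE and upper-quartile scaling moved the median of all genes to 0.013 and -0.033.

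Replicate numbers 1 to 4 occur in both groups but belong to different mice. Deviations of same-numbered libraries correlated at -0.029, 0.0093, -0.081 and 0.13, and 1 of 4 correlated best with its own number, so the numbers were not taken as pairs. With the number as a replicate block, 0 of the 61 genes and 112 of all genes had an adjusted p of 0.05 or less. Depth limits Eif5a2 and Eif2ak3, with as few as 10 and 43 counts in a library.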

Other observations

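The wider list also held factors of mitochondrial translation, which makes the respiratory chain proteins encoded in mitochondria. Gfm1, the mitochondrial translocase, was at 131 to 138 CPM in Control and 94.3 to 125 CPM in LLC, with no overlap, and its log2 fold change was -0.26 ± 0.094 (SE), at an edgeR adjusted p of 0.117. Tufm, which delivers aminoacyl-tRNA in mitochondria, was at 91.1 to 95.7 CPM in Control and 56.2 to 86.3 CPM in LLC, lowest in LLC 1, also with no overlap. Its log2 fold change was -0.29 (adjusted p 0.135), or -0.19 with an adjusted p of 0.0490 without LLC 1 and LLC 5. Mtif2 (-0.27, adjusted p 0.135), Gfm2 (-0.19, adjusted p 0.296) and Tsfm (-0.34, adjusted p 0.229) were negative too, and Mtif3 was at 0.13 (adjusted p 0.480). These genes were named after their values were seen. In the wider list, 3 of the 32 tested genes had all 6 LLC libraries below all 4 Control libraries (background 9.57%). In 8 of the 32 all 6 lay above (background 6.4%). The share of counts from mitochondrially encoded genes was lower in LLC, at 22.0% to 27.9%, than in Control, at 28.45% to 30.7%. With mitochondrially encoded genes left out before scaling, the log2 fold change of Gfm1 was -0.26 and that of Tufm -0.29. Any other part of this share in the values of the mitochondrial factors was not tested.

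Hbs1l, which rescues stalled ribosomes together with Pelo, was at 56.1 to 63.2 CPM in Control and 67.1 to 72.8 CPM in LLC, with LLC 1 at 70.6 CPM. Its log2 fold change was 0.24 ± 0.073 (SE), at an edgeR adjusted p of 0.0687 and of 0.00258 in DESeq2. Hbs1l was named after its values were seen. DESeq2 gave 4 of the 32 tested genes of the wider list an adjusted p of 0.05 or less (background 11.9%).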
